A study of Mus musculus with 8 samples.

Results

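The Lpp locus on mouse chromosome 16 held 42 regions whose H3K27ac signal differed between Nrip1 KO and control myotubes, of 11180 such regions in all. Of the 42, 40 were decreased and 2 were increased in the KO. All 19 regions centred inside the Lpp gene were decreased, where 92.2% of the differential regions on chromosome 16 were. All 19 lay in introns, which make up nearly all of the gene body. The regions were chosen on the calls themselves: a differential region belonged to the locus if its centre lay inside Lpp, if Lpp had the nearest protein-coding transcription start, or if its centre lay within 500 kb of the gene body. All 42 met the last criterion, 25 had Lpp as the nearest start, and the direction of a region was the list that held it. The counts below therefore describe the regions and no test was applied to them.

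H3K27ac, acetylation of lysine 27 on histone H3, marks active promoters and enhancers and was mapped by CUT&RUN, in which an antibody guides a nuclease to cut the chromatin around the mark. The 8 libraries came from primary myotubes that were grown from satellite cells of the gastrocnemius and differentiated for 4 days. They formed 4 groups of 2, Nrip1KO and Ctrl cells each with an H3K27Ac antibody or with IgG, which binds no histone mark. Nrip1 encodes RIP140, a coregulator of nuclear receptors. The study crossed Nrip1 fl/fl mice (C57BL/6J) to C57BL/6JN mice with Cre driven by the MCK promoter, active in striated muscle, or the myogenin promoter, active in skeletal muscle, and took Cre-negative littermates as controls. The methods give an age range for the mice of the study as a whole, but the driver behind these cultures, the age of their donors and the number of animals per library were not given in the sources used here. Nuclei were pooled before they were divided between antibodies, and the labels and the methods name different suppliers for the H3K27ac antibody. The lists give positions and direction only. No level per library, fold change or depth stood behind a region, so neither the spread between replicates nor the precision of a call could be given, and the labelled cell type could not be checked against marker levels.

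LPP is a LIM-domain protein of the zyxin family. It sits at focal adhesions and cell contacts, binds the actin regulator VASP and alpha-actinin, can enter the nucleus, and is abundant in smooth muscle. An Lpp intron hosts the microRNA gene Mir28a. The neighbouring Bcl6 encodes a transcriptional repressor.

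In the mm10 build, Lpp (ENSMUSG00000033306.15) lies on the plus strand at chr16:24393507-24992578, a body of 599 kb. GENCODE lists 6 transcripts. The main one, Lpp-201, has 13 exons and starts at position 24393540, close to the starts of Lpp-205 and Lpp-204 at 24393507 and 24393738. Further starts lie within the gene, that of Lpp-202 at 24448091, that of Lpp-203 at 24721855 and that of Lpp-206, a transcript annotated for nonsense-mediated decay, at 24845175. Translation of Lpp-201 begins in exon 5, at position 24608125, so introns 1 to 4 precede the coding sequence.

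**Figure D1:**
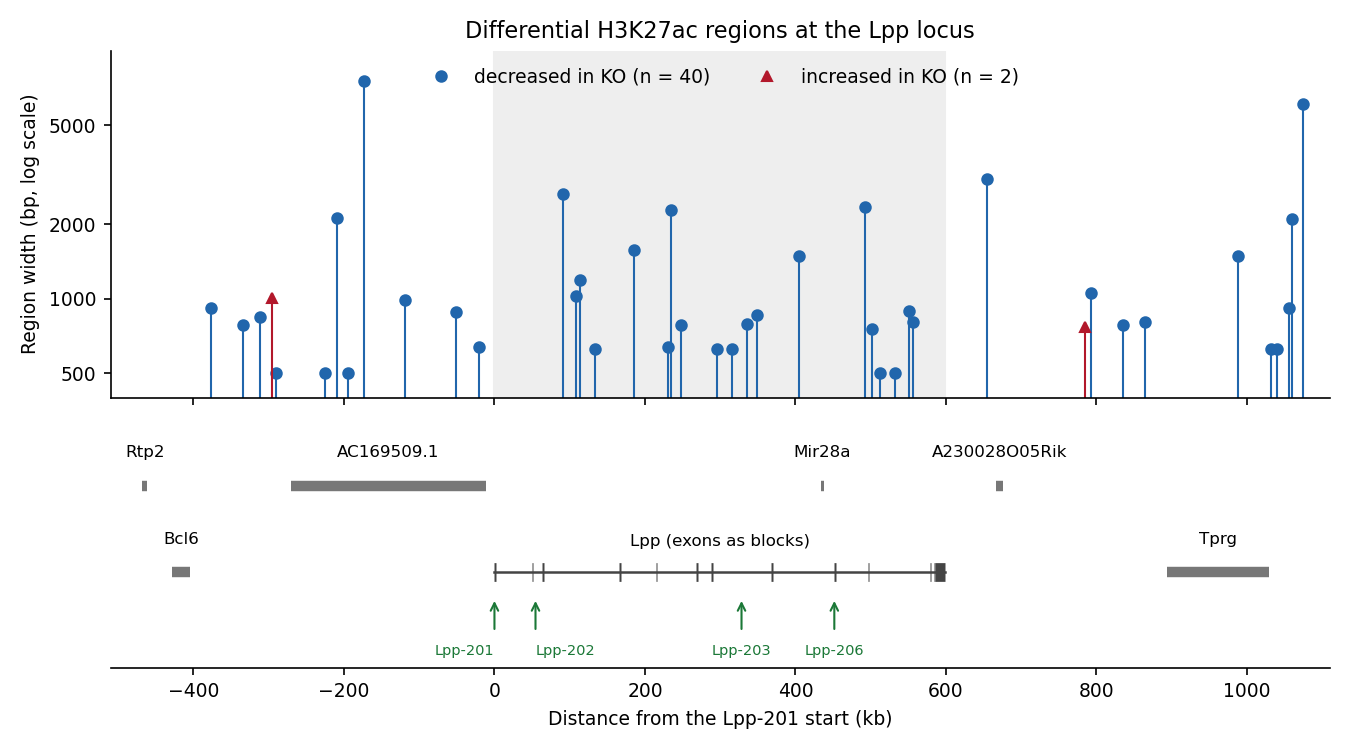
Width in bp (log scale) of the 42 differential H3K27ac regions against distance in kb from the Lpp-201 start; blue circles are decreased and red triangles increased in Nrip1 KO, and grey shading is the Lpp body. The 19 regions in the body were all decreased, none lay at a start (green arrows), and the 2 increased regions lay on either side of the gene.

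The sequences of 8 decreased regions and of both increased ones are shown so that the elements behind the counts can be read. Each is a stretch of 160 bases of the GRCm38.p6 genome (RefSeq), 5′ to 3′ on the plus strand, with matches to the searched motifs in capitals. The first lies in the region nearest to any Lpp start within the gene, with an E-box and a TEAD match.
Lpp intron 7, chr16:24729199-24729358: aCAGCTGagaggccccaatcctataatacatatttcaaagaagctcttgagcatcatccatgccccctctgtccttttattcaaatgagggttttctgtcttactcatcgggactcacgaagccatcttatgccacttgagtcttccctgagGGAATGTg
The widest region inside Lpp spans 2636 bp in intron 3, and the stretch shown has an E-box match.
Lpp intron 3, widest, chr16:24483551-24483710: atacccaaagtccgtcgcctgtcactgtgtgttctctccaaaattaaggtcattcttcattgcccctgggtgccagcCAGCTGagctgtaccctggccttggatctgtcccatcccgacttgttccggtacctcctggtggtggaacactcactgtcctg
The regions with 2 AP-1 matches each lie in introns 3 and 5, and each stretch shows 1 of the matches.
Lpp intron 3, chr16:24508024-24508183: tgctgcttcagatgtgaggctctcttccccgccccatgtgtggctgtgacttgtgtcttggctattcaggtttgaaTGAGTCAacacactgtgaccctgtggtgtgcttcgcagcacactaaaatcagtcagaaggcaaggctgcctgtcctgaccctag
Lpp intron 5, chr16:24641509-24641668: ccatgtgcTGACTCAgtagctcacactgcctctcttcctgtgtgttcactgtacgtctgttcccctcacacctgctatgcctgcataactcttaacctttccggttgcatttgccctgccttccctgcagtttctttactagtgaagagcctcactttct
The region of intron 9 had the most TEAD matches inside the gene, 3, of which the stretch shows 2.
Lpp intron 9, chr16:24885622-24885781: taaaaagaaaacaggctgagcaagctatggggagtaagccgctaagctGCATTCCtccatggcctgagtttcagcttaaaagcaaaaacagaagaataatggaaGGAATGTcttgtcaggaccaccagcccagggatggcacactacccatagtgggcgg
Introns 4 and 7 held the regions with 2 RUNX matches, of which 1 each is shown.
Lpp intron 4, chr16:24578401-24578560: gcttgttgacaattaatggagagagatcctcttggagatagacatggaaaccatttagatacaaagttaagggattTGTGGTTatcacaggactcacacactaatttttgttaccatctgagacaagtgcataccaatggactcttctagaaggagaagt
Lpp intron 7, RUNX, chr16:24688815-24688974: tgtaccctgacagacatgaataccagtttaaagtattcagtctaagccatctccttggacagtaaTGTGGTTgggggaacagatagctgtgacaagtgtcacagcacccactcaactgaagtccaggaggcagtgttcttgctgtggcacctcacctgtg
The closest region before the first Lpp start had a CArG match.
upstream of Lpp, chr16:24373792-24373951: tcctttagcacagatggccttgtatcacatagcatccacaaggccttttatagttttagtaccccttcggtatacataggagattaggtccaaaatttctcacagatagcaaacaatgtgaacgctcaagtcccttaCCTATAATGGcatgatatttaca
The increased regions lie nearer to Bcl6 and to Tprg than to Lpp. The stretch of the former, from its centre, had no match to any of the motifs.
increased, towards Bcl6, chr16:24097787-24097946: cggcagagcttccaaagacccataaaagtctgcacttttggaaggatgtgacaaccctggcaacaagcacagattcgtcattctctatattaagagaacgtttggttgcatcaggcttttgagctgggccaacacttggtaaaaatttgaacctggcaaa
increased, towards Tprg, chr16:25178129-25178288: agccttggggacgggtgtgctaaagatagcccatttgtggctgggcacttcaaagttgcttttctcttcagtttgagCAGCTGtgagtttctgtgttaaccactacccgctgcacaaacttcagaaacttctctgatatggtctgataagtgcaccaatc

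No member lay within 1 kb of any Lpp start. The share of all differential regions that lie so close to a start is not given here, so this count does not set Lpp apart. The nearest to the main start was the decreased region chr16:24373327-24373963, 637 bp wide, whose centre was 19895 bp upstream of Lpp-201. Within the gene, the nearest was chr16:24729121-24729913 (793 bp), 7662 bp downstream of the Lpp-203 start. For Lpp-202 and Lpp-206 the distances were 35902 bp, to chr16:24482675-24485310, and 41263 bp, to chr16:24885268-24887608. Across the 19 regions inside Lpp the distance to the nearest of its starts had a median of 59.7 kb and a range of 7.66 to 131 kb. The antisense gene Lppos, which overlaps the first Lpp start at chr16:24391612-24393588, had its nearest member 19943 bp from its own start.

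The intronic regions left the ends of the gene empty. The first 89.2 kb of the body, with introns 1 and 2, held no differential region, nor did the last 42.9 kb, with introns 11 and 12 and the last exon of 13386 bp. Before the coding start, 215 kb of the body held 5 regions (23.3 per Mb). After it, 384 kb held 14 (36.4 per Mb). Divided at the Lpp-203 start instead, the body had 10 regions over 328 kb (30.5 per Mb) and 9 over 271 kb (33.2 per Mb).

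Intron 3, the longest at 103 kb, held 4 regions, at chr16:24482675-24485310 (2636 bp), chr16:24501494-24502520 (1027 bp), chr16:24507195-24508387 (1193 bp) and chr16:24527492-24528119 (628 bp). Intron 4 held chr16:24578322-24579891 (1570 bp) alone. Intron 5, which follows the exon with the start codon, held 3, at chr16:24623642-24624279 (638 bp), chr16:24626777-24629057 (2281 bp) and chr16:24641500-24642280 (781 bp). These 3 lay within 18.6 kb of one another, and no other differential region was in that intron of 53.4 kb.

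Intron 7 held 4 narrow regions, at chr16:24688750-24689377 (628 bp), chr16:24708944-24709570 (627 bp), chr16:24729121-24729913 (793 bp) and chr16:24742029-24742889 (861 bp). The Lpp-203 start lies between the second and the third of them. Intron 8, at 82.8 kb, held only chr16:24797397-24798889 (1493 bp), and intron 6, at 20.0 kb, held none. Intron 9 held chr16:24885268-24887608 (2341 bp). Intron 10 was the most populated, with 5 regions over 81.9 kb, at chr16:24894612-24895367 (756 bp), chr16:24905261-24905761 (501 bp), chr16:24925300-24925800 (501 bp), chr16:24943445-24944336 (892 bp) and chr16:24948884-24949689 (806 bp). Per length, density was highest in introns 10, 5 and 7, at 6.11, 5.62 and 5.02 regions per 100 kb. None of the 19 touched an exon of any annotated gene, in a body that is nearly all intron.

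**Figure D2:**
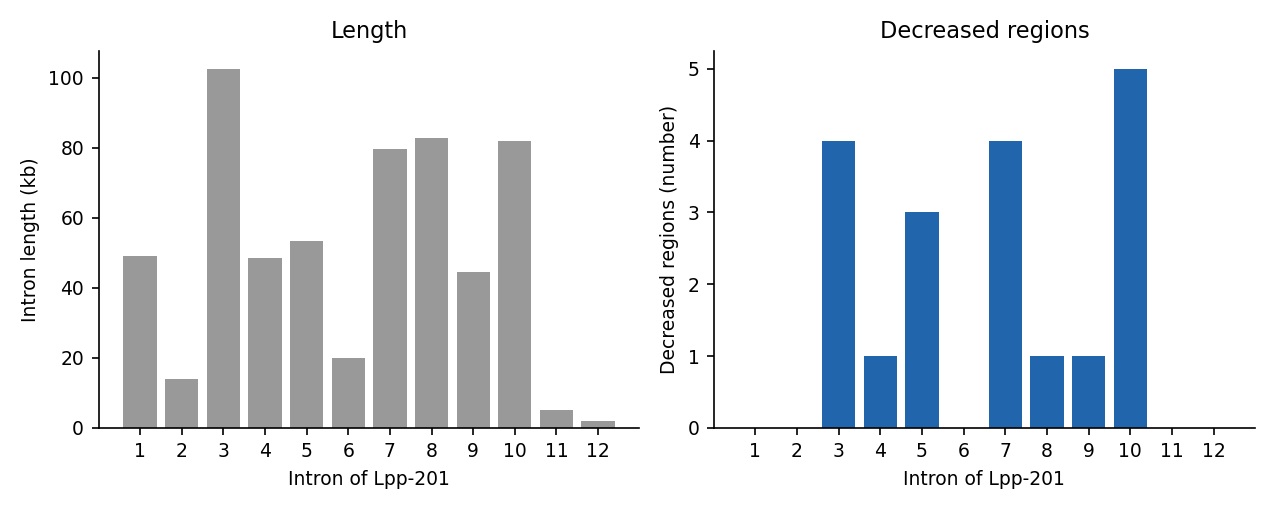
Length in kb (left) and number of decreased regions (right) of each of the 12 Lpp-201 introns. Intron 10 held 5 regions and introns 3 and 7 held 4 each, whereas introns 1, 2, 6, 11 and 12 had none.

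The regions inside the gene formed small runs. Of the 18 gaps between neighbours, the median was 18.4 kb and the range 2.5 to 86.4 kb. With neighbours joined across gaps of up to 12.5 kb, the distance often used to stitch enhancers, 5 runs resulted inside Lpp. The longest, chr16:24885268-24905761, spanned 20.5 kb and held 3 regions from introns 9 and 10. The next, in intron 5, also held 3. The remaining 3 runs held 2 regions each.

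Mir28a, a microRNA gene of the miR-28 family, lies in intron 8. Its mature products are shown with the seed, bases 2 to 8, in capitals, since the seed pairs with the target messenger RNA.
mmu-miR-28a-5p, chr16:24827868-24827889: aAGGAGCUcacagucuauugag
mmu-miR-28a-3p, chr16:24827908-24827929: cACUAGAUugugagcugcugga
The seeds differ between the arms. The nearest differential region, chr16:24797397-24798889, was 29.7 kb from the 5p arm, so the microRNA itself carried no call.

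Upstream of the gene, the 405 kb between the Bcl6 and Lpp starts held 11 decreased regions and 1 increased region. The 5 nearest to Lpp were decreased and lay at chr16:24199292-24199792 (501 bp), chr16:24215906-24223423 (7518 bp), chr16:24274691-24275681 (991 bp), chr16:24342075-24342961 (887 bp) and chr16:24373327-24373963 (637 bp). The second of these was the widest of all 42 and by its name merged 2 peaks. The other 7 had Bcl6 as the nearest protein-coding start. The decreased ones were chr16:24016186-24017104 (919 bp), which lay 27793 bp from the Bcl6 start, chr16:24058823-24059603 (781 bp), chr16:24081376-24082219 (844 bp), chr16:24102883-24103383 (501 bp), chr16:24167753-24168253 (501 bp) and chr16:24183238-24185360 (2123 bp). The increased one, chr16:24097362-24098371 (1010 bp), lay among them, 109015 bp from the Bcl6 start. The 95.3 kb from the Bcl6 start to the outer limit of the locus, with Bcl6 itself, the short gene Gm37419 within its body and Rtp2, a gene for a receptor-transporting protein, held no differential region.

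Non-coding genes and a transcribed pseudogene overlap the upstream stretch. Of the upstream regions, 7 were centred in the pseudogene, AC169509.1. The region at chr16:24167753-24168253 lay 558 bp from the start of the non-coding gene Gm32126. The region at chr16:24081376-24082219 lay 892 bp from the start of the lincRNA gene Gm46545. Other upstream regions touched exons of Gm49518, Gm31814 and AC169509.1. The assignment of most regions to Lpp depended on leaving such genes out. Against the starts of all annotated genes, 7 of the 25 regions kept Lpp as the nearest, and 18 were nearer to a non-coding gene or pseudogene, 6 of them to the small nucleolar RNA gene Gm22672 and 5 to Morf4l1-ps1.

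Downstream, 1 region still had Lpp as the nearest start, chr16:25046628-25049665, decreased and 3038 bp wide. The interval from the Lpp end to the Tprg start, 294 kb, held 4 decreased regions and 1 increased region, with the longest empty gap of the locus (128 kb) directly before the increased one, chr16:25177876-25178643 (768 bp). Next to it lay the decreased regions chr16:25185428-25186484 (1057 bp), chr16:25228019-25228802 (784 bp) and chr16:25258202-25259011 (810 bp), the last of them 28210 bp from the start of Tprg, named as a p63-regulated gene. The Tprg body held 1 decreased region, chr16:25380343-25381833 (1491 bp).

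Past the end of Tprg the calls were dense. The last 70.2 kb of the locus held 5 decreased regions, at chr16:25424930-25425555 (626 bp), chr16:25432467-25433092 (626 bp), chr16:25448773-25449688 (916 bp), chr16:25451944-25454041 (2098 bp) and chr16:25465036-25471143 (6108 bp). That was 71.2 per Mb, above the 31.7 per Mb inside Lpp, so decreased regions were not densest within the gene. At the limits of the locus, the last member downstream was centred 476 kb past the Lpp end and the first call beyond the limit, chr16:25507512-25508219, 515 kb past it. On the upstream side the outermost member was centred 377 kb from the body and the next call, chr16:23544718-23547587, 847 kb from it. All 4 were decreased.

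The direction of the calls at Lpp was near that of the chromosome. Decreased regions made up 95.2% of the members, against 92.2% of the 846 regions on chromosome 16 and 65.0% of the regions on all chromosomes. Nrip1, the deleted gene, is on the same chromosome, 51.3 Mb beyond the Lpp end. With so many decreased calls along the chromosome, a difference between the cultures in its copy number cannot be told apart from a loss of acetylation in lists of this kind.

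In density Lpp stood well above its chromosome. Its 31.7 decreased regions per Mb compared with 7.94 per Mb over chromosome 16 and 2.66 per Mb over the genome. The body was 0.61% of the chromosome and held 2.44% of its decreased regions. The 500-kb flanks held 21 per Mb, and chromosome 16 without the locus 7.66 per Mb. Within the flanks the density was uneven. It was 27.2 per Mb between the Bcl6 and Lpp starts and 0 from the Bcl6 start to the outer limit. Downstream it was 13.6 per Mb up to Tprg, 7.38 in the Tprg body and 71.2 past it. The regions covered 20953 bp, or 3.5%, of the Lpp body and 4.25% of the stretch between the Bcl6 and Lpp starts. Among 163 windows of the length of Lpp along chromosome 16, the median held 2 decreased regions, the range was 0 to 24, and 5 held more than 19.

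Of the 2492 protein-coding gene bodies of at least 100 kb, 37.9% held at least 1 decreased region, and 1 held more than Lpp, Gm20388 on chromosome 8, with 61 decreased and 6 increased regions over 4430 kb. No gene on chromosome 16 held more. After Lpp came 2900026A02Rik on chromosome 5, with 18 over 135 kb, and Hivep3, a zinc finger gene on chromosome 4, with 17 over 404 kb. On chromosome 16 the next were Cmss1 with 15 decreased and 1 increased, Snx29, a sorting nexin gene, with 13, and Filip1l, a filamin A-interacting protein-like gene, with 11. A region centred in overlapping bodies was counted in each of them, here and in the densities below. Counts of different genes can therefore share regions. Across the genome, 0 genes were the nearest start of more decreased regions than Lpp. This rank used the starts of all transcripts, of which Lpp has several along its body. With a single start per gene, Lpp was nearest for 18 regions, and the rank was not recomputed.

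Per length, the order was different. Of these bodies, 54 had a higher density than Lpp, 16 of them on chromosome 16. The densest were 2900026A02Rik at 133 per Mb, Itpk1, an inositol phosphate kinase gene, at 95.3 and Arhgef10l at 92.4, and on chromosome 16 Xxylt1 at 71.3, Litaf at 56.1 and Cd47 at 52.4. The median body on chromosome 16 had 7.97 per Mb. The other genes of the chromosome at least as long as Lpp were all sparser, at 0 to 9.93 per Mb. Examples were Lsamp, with 6 decreased regions in 2200 kb, Robo1, with 6 decreased and 3 increased, and Epha6, with none in 952 kb. Of the 13 bodies with at least 10 decreased regions, 11 held no increased region, Lpp among them.

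**Figure D3:**
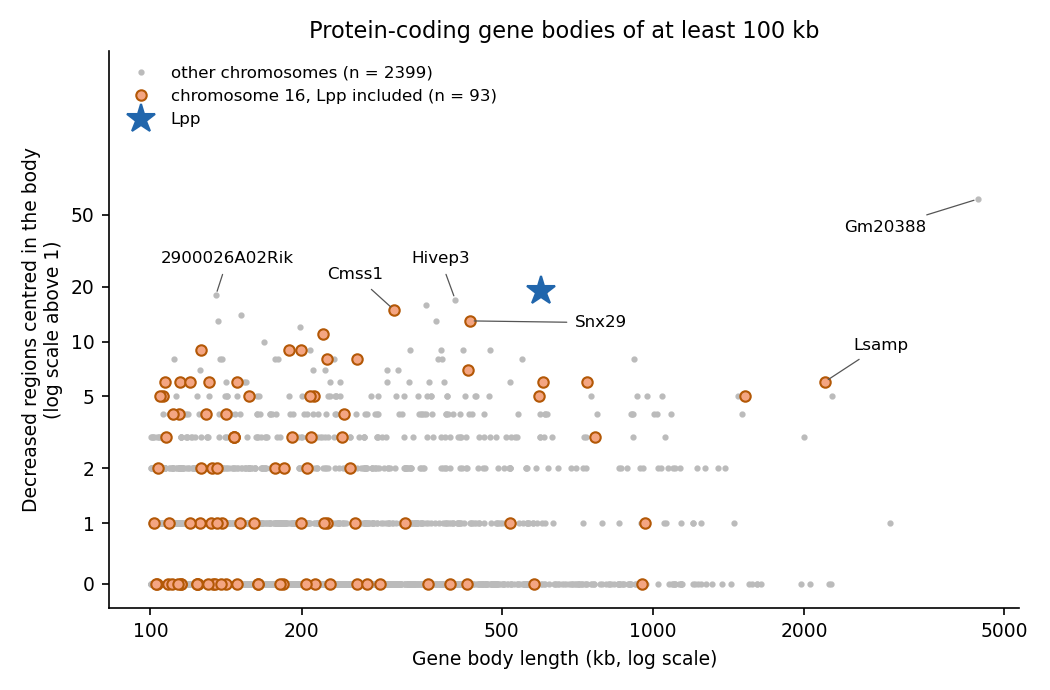
Decreased regions centred in each protein-coding gene body of at least 100 kb, against body length in kb (both axes on a log scale above 1 region); grey points are genes of other chromosomes, orange circles the 93 genes of chromosome 16, and the star is Lpp. Lpp, with 19 regions over 599 kb, lies above every other gene of chromosome 16 and below Gm20388.

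The regions inside Lpp were of ordinary width and low in GC. Their median width was 806 bp (range 501 to 2636 bp), against 934 bp for the decreased regions of chromosome 16, and 36.8% were at least 1 kb wide, against 47.1%. Mean GC content was 42.8% ± 2.82 (SD over 19 regions), beside 41.5% for the whole Lpp body and 46.5% ± 4.96 (SD, n = 780) for the decreased regions of the chromosome. The 5 upstream regions assigned to Lpp had a higher GC content, 47.3% ± 2.54 (SD). CpG dinucleotides were few, with a median of 6.2 per kb inside the gene and 8.34 over the decreased regions of the chromosome. The chr16:24925300-24925800 region had none.

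**Figure D4:**
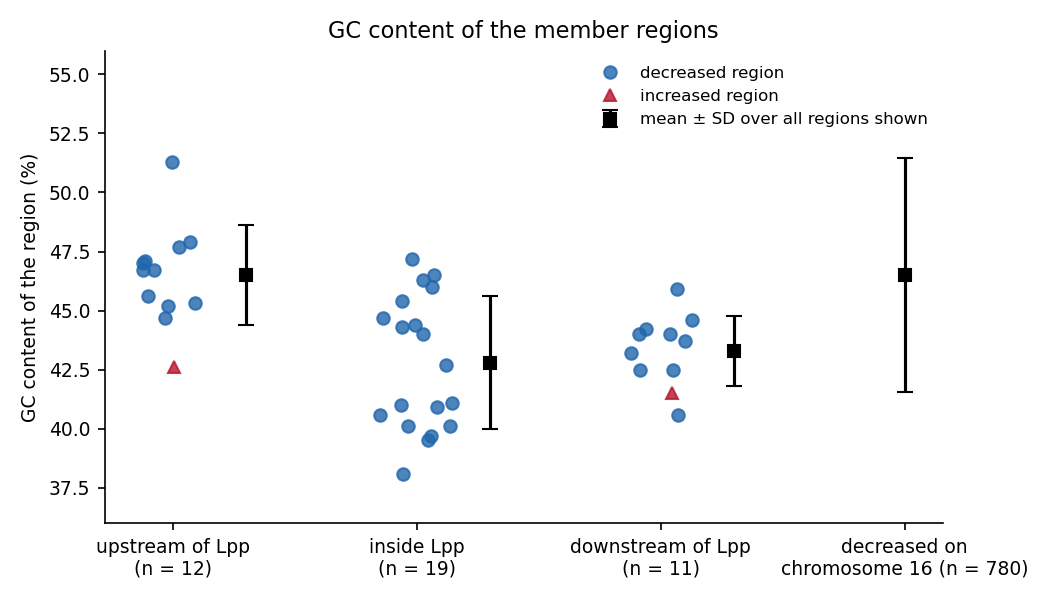
GC content in percent of each member upstream of, inside and downstream of Lpp (blue circles decreased, red triangles increased), with the mean ± SD of each group beside it and, at the right, that of the 780 decreased regions of chromosome 16. Regions inside Lpp ran from 38.1 to 47.2%, around a mean of 42.8%, and the 12 upstream members from 42.6 to 51.3%, around 46.5%.

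The regions were searched on both strands for motifs of factors active in muscle or at enhancers, none of which contains another: AP-1 (TGACTCA), TEAD (ACATTCC or GCATTCC), the E-box of myogenic factors (CAGCTG), RUNX (TGTGGTT), the estrogen-related receptor site (ERR, TCAAGGTCA), MEF2 and the CArG box of serum response factor. In the central 500 bp of the 19 regions inside Lpp, 6 had a TEAD match (31.6%, against 15.2% of all differential regions) and 5 a RUNX match (26.3% against 13.6%). The E-box was in 6 (31.6% against 34.7%) and AP-1 in 1 (5.26% against 14.1%). Over their whole width, 7 had TEAD (36.8% against 28.0%), 8 RUNX (42.1% against 24.9%), 11 the E-box (57.9% against 52.7%) and 4 AP-1 (21.1% against 25%). The E-box share was thus below that of all differential regions in the centre and above it over the whole width. Among the decreased regions of chromosome 16, TEAD was in 14.6% in the centre and 31.3% over the whole width, and RUNX in 15.8% and 29.0%. In the same set the E-box was in 36.4% and 57.6%, and AP-1 in 11.8% and 25.4%. With 19 regions, 1 region is more than 5 percentage points of any such share.

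No region inside Lpp had an ERR, MEF2 or CArG match over its whole width, motifs found in 2.88%, 3.44% and 5.97% of all differential regions. In the flanks there was 1 of each, ERR in chr16:25465036-25471143, MEF2 in chr16:25432467-25433092 and CArG in chr16:24373327-24373963, the last shown above among the sequences. A match says only that the letters are present.

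**Figure D5:**
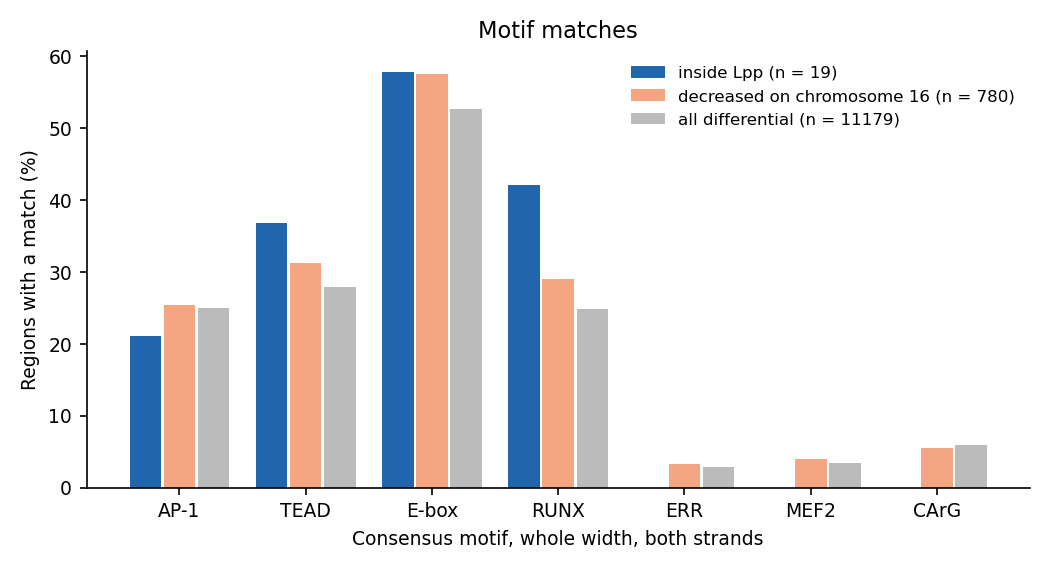
Percent of regions with at least 1 match over the whole width, for 7 motifs, in the 19 regions inside Lpp, the 780 decreased regions of chromosome 16 and all 11179 differential regions on placed chromosomes. The RUNX share inside Lpp was 42.1% against 29.0% and 24.9%, and the E-box share, 57.9%, was close to the 57.6% of chromosome 16.

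Relatives and partners of LPP were examined by the same nearest-start rule, under which 17.8% of 21938 protein-coding genes had a decreased region and 10.6% an increased one. Of 7 zyxin family genes, 4 had a decreased region, Lpp with 25, and Zyx (zyxin), Ajuba and Fblim1 (migfilin) with 1 each. Limd1 and Wtip had 1 increased region each, and Trip6 had none. Without Lpp, which was chosen on these calls, the count was 3 of 6. No family member besides Lpp had more than 1 region of either direction.

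Of 20 partner and focal adhesion genes, 10 had a decreased and 6 an increased region. The most were at Tln2 (a talin, which links integrins to actin), with 8 decreased and 1 increased, and at Etv5 (an ETS transcription factor) on chromosome 16, with 8 decreased. Enah and Evl, actin regulators related to VASP, had 4 and 2 decreased regions, and Enah also 1 increased. The actin-binding protein palladin (Palld) had 4 decreased and 2 increased. Among the alpha-actinins, Actn1 had 1 decreased and Actn4 had 3 increased regions. Ptk2, the focal adhesion kinase gene, had 2 decreased, and Pxn, Tln1 and Tes 1 each, whereas Parva had 2 increased and Flna 1. Vasp, Scrib, Vcl, Src, Ilk, Lims1 and Nexn had none.

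Of 8 smooth muscle genes, 3 had a decreased region and 0 an increased one. They were Mylk (myosin light chain kinase) with 9, Myh11 (smooth muscle myosin) with 3, both on chromosome 16, and Smtn with 1. Of 8 fibroblast genes, 2 had a decreased region, Thy1 with 2 and Col1a1 with 1, and 3 an increased one, Col3a1 with 3, and Col1a2 and Dcn with 1 each. Gene length and chromosome differ between these genes, and the part of either in the counts was not tested.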

How the data were processed

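H3K27ac and IgG CUT&RUN libraries of Nrip1KO and Ctrl myotubes (8 libraries, 4 groups of 2) were aligned by the authors to mm10 with BWA-MEM2 (2.2.1), and broad peaks and differences of at least 2-fold were called with HOMER (4.11). How replicates and IgG entered the calls is not given in the sources used here. The authors deposited 1 list of decreased and 1 of increased regions, with coordinates and a score of 1 in every row, which was not used. The lists hold no value per library, so depth per library is unknown and no test was run. The locus and the gene lists were chosen with earlier results of these data known.

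Region centres were placed on GENCODE M21 genes (55450, of which 21938 protein-coding), and direction was the list a region came from. The distance to a start was taken over all transcripts of protein-coding genes. Of the 11180 regions, 1 lay on unplaced sequence and was left out of chromosome-wide values. The number that ends a region name was read as the number of peaks merged into it. GC content and motifs were read from the GRCm38.p6 genome (RefSeq), whose chromosomes are those of mm10. Genes named were Lpp, its protein-coding and microRNA neighbours within 500 kb, the genes of the lists, and the 3 bodies of at least 100 kb with the most or densest decreased regions, genome-wide and on chromosome 16. Exceptions named after their values were seen are list genes without a region, the non-coding genes and pseudogenes, and Lsamp, Robo1 and Epha6. Counting was tested on simulated regions. Python 3.11.15, NumPy 2.4.6, pandas 2.3.3 and Matplotlib 3.10.9 were used. Alternatives were other flanks, widths, joining distances, start sets and motif windows.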

Additional observations from a re-analysis of the deposited data

How the results depend on the processing

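Of 37 alternative values, 26 stayed within 1.5 times the value reported or within its spread, and 11 moved further. Some of the 26 could not move. Joining within 1 kb could change nothing because the smallest gap between members was 2.25 kb. The count within 0.1 kb of a start was fixed by that within 1 kb. A flank of 250 kb kept 1 increased region, with 29 decreased. With regions of at least 1 kb only, the locus held 14 decreased and 1 increased, Lpp held 7, and the density inside Lpp was 11.7 per Mb. As bases covered, density was 3.5% of the body. That value was counted as moved, but its unit differs from regions per Mb, so the 2 cannot be compared. Against starts of all annotated genes, Lpp was nearest for 7 regions. Over the whole width in place of the central 500 bp, AP-1 matched 4, the E-box 11 and RUNX 8 of the regions inside Lpp. Counted by centres inside the body, 0 fibroblast genes had a decreased region, and Col3a1, Col1a2 and Dcn held no increased one. The count near starts was 0 within 0.1, 1 and 2.5 kb. Direction was set by the list that held a region, so no alternative could change it. In the central 500 bp, the E-box share inside Lpp was below that of all differential regions (31.6% against 34.7%). Over the whole width it was above (57.9% against 52.7%).

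No paired analysis was possible because the lists hold no value per library. Regions whose acetylation changed by less than the threshold of 2-fold, and unchanged peaks, are outside the lists, and an empty stretch says nothing of the level of H3K27ac there.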
